A study of Mus musculus with 12 samples.

Results

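Gypc, Rhd, Rhag, Kel, Aqp1, Icam4, Ermap and Cd47 encode surface proteins of the red cell that carry blood group antigens or belong to the complexes that do. These 8 genes were chosen by their symbols, with earlier results of these data known. Each symbol had 1 row among the 29838 genes of the expression table. RNA had been sequenced from erythroblasts, the nucleated precursors of red cells, sorted from the bone marrow of wild-type C57BL/6 male mice aged 8 weeks. There were 4 stages in order of maturation, Pro, Baso, Poly and Ortho (proerythroblasts and basophilic, polychromatic and orthochromatic erythroblasts), with 3 libraries each and 12 in all. No group carried a transgene or received a treatment. Cells positive for CD45, CD11b or GR1 or stained by 7-AAD had been gated out. Pro cells were sorted as high in CD44 and low in Ter119, and the other stages were split among Ter119-positive cells by CD44 and cell size. The stage of Ortho replicates 2 and 3 was taken from their titles, since their cell type label read only erythroblast. The labels and methods do not tie the libraries of a stage to separate animals or pools, so every p-value measures only the spread between these libraries.

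Blood group antigens sit on membrane proteins that have other work to do. The Rh polypeptide (Rhd) and its ammonia-conducting partner RhAG (Rhag) form the core of the Rh complex, which also takes in the Landsteiner-Wiener adhesion molecule (Icam4) and Cd47, the ligand by which red cells hold off phagocytosis, and which joins band 3 (Slc4a1) and ankyrin. Kell (Kel) is a metallopeptidase held by a disulfide bond to the XK protein. Glycophorin C (Gypc, the Gerbich protein) ties the membrane to the skeleton through protein 4.1R (Epb41) and p55 (Mpp1), Aqp1 is the water channel that carries the Colton antigens, and Ermap is an immunoglobulin superfamily protein of the butyrophilin type that carries the Scianna antigens. During terminal erythroid differentiation cells fill with hemoglobin, shrink and lose their nucleus, while the membrane of the future red cell is put together.

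The sequences just upstream of the start sites are shown for the 5 genes whose window held the motif of the erythroid GATA factors. RefSeq promoter windows (GRCm38.p6, from 250 bases before the start to 50 after it) could be read for 7 of the 8 genes. A match to AGATAA or TGATAA on either strand was present in Rhd, Rhag, Kel, Icam4 and Ermap, and these letters were not found in the windows of Aqp1 and Cd47. Of all 32851 windows of this length, 18.6% held the motif. Below are the 120 bases before each start, 5′ to 3′ on the strand of the gene, with the matches in capitals.
Rhd (chr4:134864416-134864535, plus strand): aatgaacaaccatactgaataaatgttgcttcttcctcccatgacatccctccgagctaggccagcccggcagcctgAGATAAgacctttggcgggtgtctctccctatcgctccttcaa
Rhag (chr17:40811029-40811148, plus strand): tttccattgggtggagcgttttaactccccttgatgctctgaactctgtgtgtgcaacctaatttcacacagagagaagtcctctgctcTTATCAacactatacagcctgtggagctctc
Kel (chr6:41704326-41704445, minus strand): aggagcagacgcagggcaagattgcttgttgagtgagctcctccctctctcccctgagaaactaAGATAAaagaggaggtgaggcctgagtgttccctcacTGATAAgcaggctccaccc
Icam4 (chr9:21029312-21029431, plus strand): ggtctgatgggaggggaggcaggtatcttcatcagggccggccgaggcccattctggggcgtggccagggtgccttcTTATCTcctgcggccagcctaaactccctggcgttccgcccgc
Ermap (chr4:119189996-119190115, minus strand): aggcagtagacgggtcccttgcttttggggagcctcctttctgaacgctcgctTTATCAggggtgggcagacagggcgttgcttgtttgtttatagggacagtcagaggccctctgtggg
The matches lay at -43 to -38 in Rhd, -31 to -26 in Rhag, -43 to -38 in Icam4 and -67 to -62 in Ermap, counted from the base before the start as -1. The starts are those of RefSeq and can differ from the gene spans given below. The RefSeq start of Icam4 is at 21029432, so its match lies inside the span given for that gene. The bases upstream of the RefSeq starts of Cd47 also lie inside its span. Kel held a pair of matches, at -56 to -51 and at -19 to -14. Of the other motifs searched on both strands, the CACC box, as CCNCNCCC, was present in Rhd, Aqp1 and Icam4 and in 49.5% of all windows. The NF-E2 core, as TGANTCA, was present in Kel and in 7.81% of windows, and TATAAA was present in Ermap and in 13.6%. These are matches of letters, and binding was not measured.

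Expression is given as FPKM, the fragments of a gene per kilobase of its length and relative to all fragments of the library, so that levels of different genes can be set side by side. FPKM carries no counts, and the depth behind a value is unknown. The libraries summed to between 505624 and 691033 FPKM. Hemoglobin genes took 8.45% ± 1.95 (SD, n = 3) of that sum in Pro, 35.1% ± 1.79 in Baso, 36.6% ± 1.56 in Poly, then 49.6% ± 2.74 in Ortho, which lowers the FPKM of every other gene at an unchanged amount of its RNA. The 8 erythroid markers summed to 20797 to 31970 FPKM in Pro and to 167706 to 200232 in Ortho, and Hba-a1, the most abundant of them, was at 12797 ± 3451 FPKM in Pro and at 92608 ± 6800 in Ortho. All 12 neutrophil markers were also measured in every stage, and they summed to 7314 to 8920 FPKM in Pro, 12264 to 14453 in Baso, 15858 to 18890 in Poly, then 14125 to 17699 in Ortho. S100a9, the most abundant of these, was at 2633 ± 648, 4791 ± 510.3, 6587 ± 661 and 6101 ± 784 FPKM in the same order. Of the neutrophil markers, 11 rose from Pro to Baso (7 to 12 under the other scalings of the libraries described below). Of all tested genes 14.9% rose (8.89% to 30.5% under those scalings). None of the neutrophil markers had a stage mean under 1 FPKM, and the part of such cells in the results below was not tested. The samples are bulk sorts, in which fewer cells of a type and less RNA per cell cannot be told apart.

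Stages were compared by limma on log2(FPKM + 1) over 12994 genes. A gene is said to have risen or fallen where its adjusted p was under 0.05, and is said to be called where it also changed by at least 1 on the log2 scale. The median of all tested genes was itself shifted, by -0.23 in Baso against Pro, 0.03 in Poly against Baso, -0.08 in Ortho against Poly and -0.42 in Ortho against Pro. Among all called genes, 17.6% were higher in Baso against Pro, a share of 53.7% once hemoglobin genes were removed and of 57.5% once libraries were centred on their medians. In Ortho against Poly it was 18.0%, and 28.6% and 31.0% in the same alternatives. In Ortho against Pro it was 21.0%, then 63.3% and 61.6%, and 6.20% with the libraries rescaled to the same sum. Where a scaling moved a member past the threshold, short of it or across 0, the value is given with that member or in the closing section.

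All 8 genes had their highest mean in Baso. From Pro to Baso, 8 of 8 rose by limma, where 14.9% of all tested genes rose and 42.1% fell. Their median log2 fold change was 0.72, against -0.23 for all genes. None was called, against 1.82% of all genes called higher and 8.54% called lower, and all 8 had an unadjusted p under 0.05. Kel was nearest to the threshold, with a mean 2.00 times that of Pro, and 4 of the 8 were called higher once hemoglobin genes were removed, or once medians were centred, where 3.76% and 4.26% of all genes were. With the libraries rescaled to the same sum 7 rose, and the value of Ermap was 0.18 (limma, adjusted p = 0.052).

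**Figure D1:**
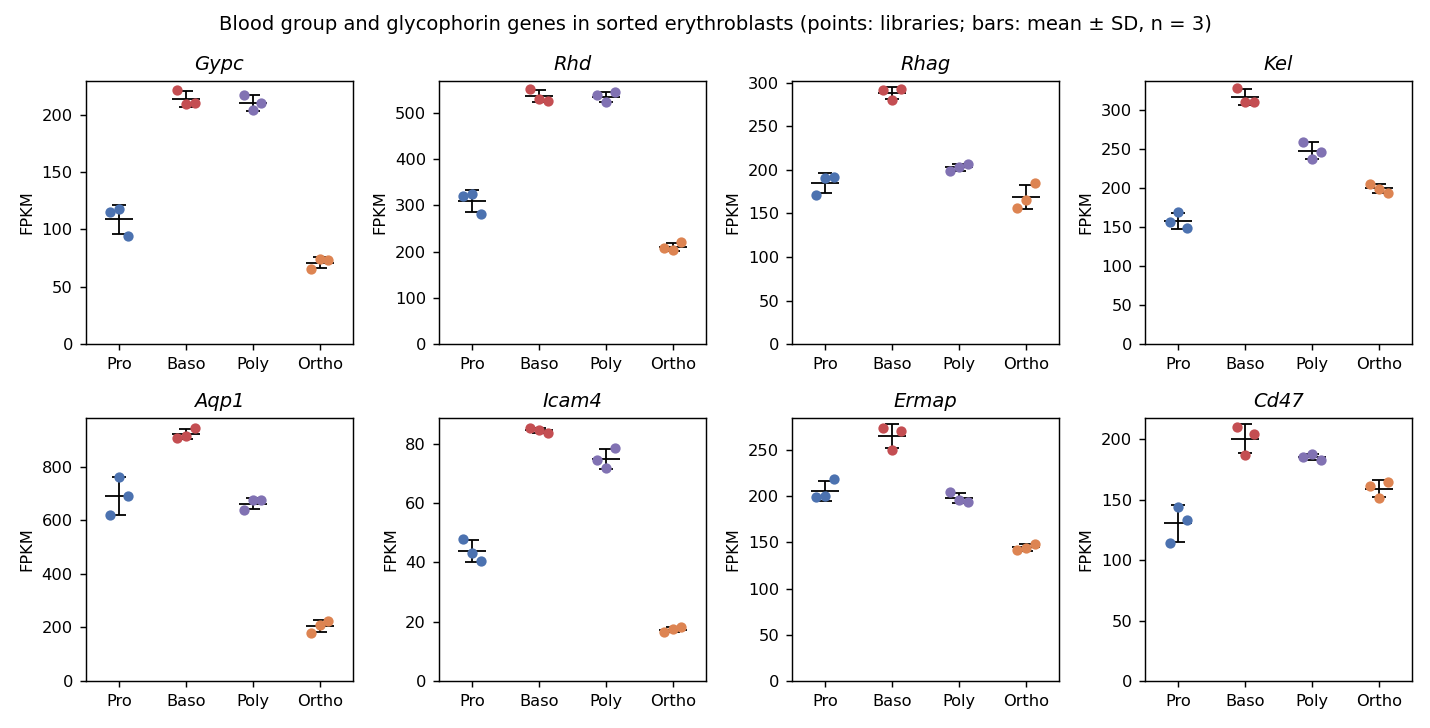
FPKM of the 8 genes by stage, 1 panel a gene, with points for libraries and bars for the mean ± SD (n = 3 a stage). The 3 Baso libraries lie above those of Pro and Ortho in every panel, and Icam4 and Aqp1 have the widest range, with means 4.87 and 4.51 times as high in Baso as in Ortho.

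The later steps divided the genes. From Baso to Poly, Rhag, Kel, Aqp1 and Ermap fell, 4 of 8, where 5.77% of all tested genes fell and 6.58% rose. None of the 8 was called by limma in that step, against 0.454% of all genes called lower and 0.0616% called higher, and 5 had an unadjusted p under 0.05. From Poly to Ortho 7 of 8 fell, against 21.7% of all genes that fell and 4.43% that rose. With hemoglobin genes left out or medians centred 5 fell, against 16.2% and 15% of all genes. With the libraries rescaled to the same sum 8 fell, against 32.3%. As deposited, Gypc, Rhd, Aqp1 and Icam4 were called lower, 4 of 8 against 4.81% of all genes, with 1.05% of all genes called higher. The members' median log2 fold change was -0.26 in Poly against Baso and -0.90 in Ortho against Poly, where that of all genes was 0.03 and -0.08.

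**Figure D2:**
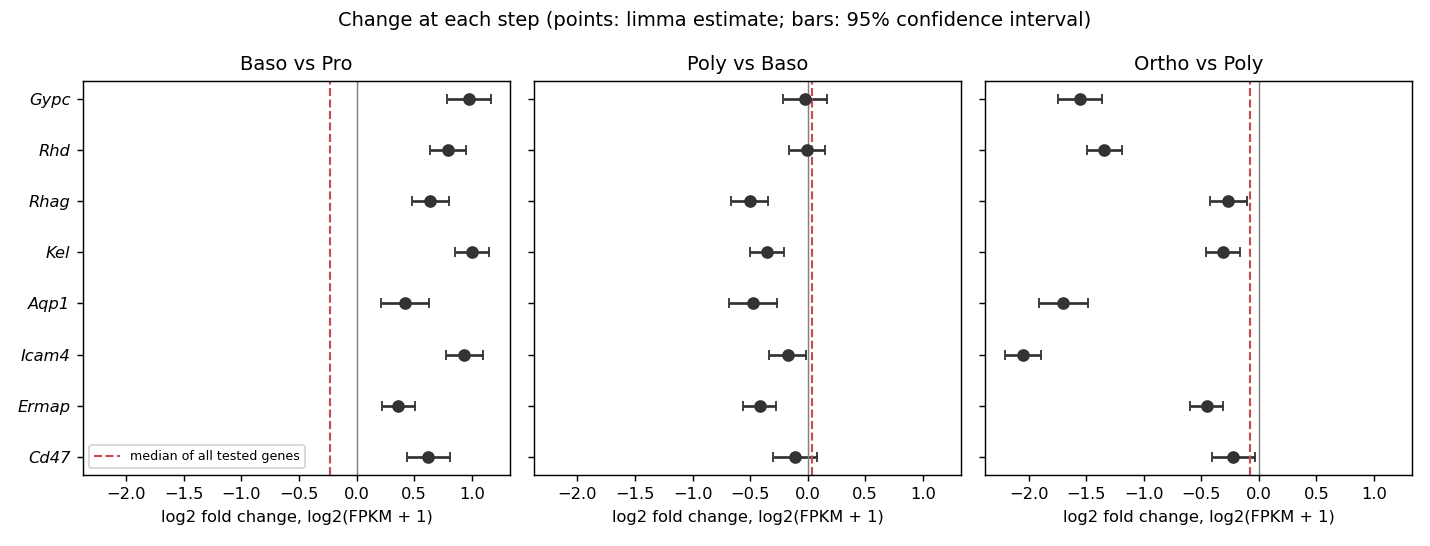
Log2 fold change of each gene at the 3 successive steps, as the limma estimate with its 95% confidence interval, and the median of all tested genes as a dashed line. All 8 points lie right of 0 in Baso against Pro, and in Ortho against Poly those of Icam4, Aqp1, Gypc and Rhd lie between -2.05 and -1.34 while the other 4 lie between -0.45 and -0.22.

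Rhd, the Rh polypeptide gene of the mouse (ENSMUSG00000028825, mm10 chr4:134864536-134896172, plus strand, 10 exons in its longest transcript), was at 319, 325 and 281 FPKM in the Pro libraries, 551, 531 and 526 in Baso, 537, 523 and 544 in Poly, then 208, 203 and 220.1 in Ortho. The Baso and Poly libraries overlapped and were the highest, every Pro library lay below them, and every Ortho library was lower still. It rose 1.74-fold from Pro to Baso (limma log2 fold change 0.80, SE 0.07, adjusted p = 5.21e-06). Between Baso and Poly the log2 difference was -0.003, with a 95% confidence interval of -0.16 to 0.15 (limma, adjusted p = 0.984). Rhd then fell by 1.34 on the log2 scale from Poly to Ortho (limma, adjusted p = 9.72e-08).

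Rhag, which makes the partner that the Rh polypeptide needs to reach the surface (ENSMUSG00000023926, mm10 chr17:40811126-40840754, plus strand, 10 exons), followed a different course. Its libraries were at 171, 191 and 191 FPKM in Pro, 291, 280.3 and 292 in Baso, 199, 203 and 207 in Poly, then 157, 165 and 184 in Ortho. Only the Baso libraries stood clearly above the rest, and the Ortho range overlapped that of Pro. Rhag rose by 0.64 (SE 0.07) on the log2 scale from Pro to Baso (limma, adjusted p = 2.73e-05) and fell by 0.51 already from Baso to Poly (limma, adjusted p = 0.00282). The further fall of 0.27 from Poly to Ortho (limma, adjusted p = 0.0189) missed the threshold when hemoglobin genes were left out or medians were centred (-0.12 in both), nor without Poly replicate 2 or 3 or Ortho replicate 1 or 2 (-0.27, -0.25, -0.21 and -0.25). In the order of its stage means, Poly and Pro (log2 difference 0.14, adjusted p = 0.123 by limma) and Pro and Ortho were neighbours that did not differ past the threshold.

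The ratio of Rhd to Rhag within a library, which does not depend on how libraries are scaled, was 1.86, 1.71 and 1.47 in Pro, 1.89, 1.89 and 1.80 in Baso, 2.70, 2.58 and 2.63 in Poly, then 1.33, 1.23 and 1.19 in Ortho. The Poly libraries had the highest ratios and the Ortho libraries the lowest, with no overlap with the other stages, while Pro and Baso overlapped. The pairs for such ratios were chosen with the values known, so they are given without a test.

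Icam4, an adhesion molecule that binds integrins (ENSMUSG00000001014, mm10 chr9:21029373-21030595, plus strand, 2 exons), was the least abundant of the 8 genes in every stage. It was at 48.0, 43.1 and 40.5 FPKM in Pro, 85.3, 84.6 and 83.6 in Baso, 74.5, 71.7 and 78.5 in Poly, then 16.6, 17.4 and 18.1 in Ortho, and no pair of stages overlapped. Its mean exceeded that of 94.2% of tested genes in Baso and of 74.2% in Ortho. The rise from Pro to Baso was 0.93 (SE 0.07) on the log2 scale (limma, adjusted p = 2.82e-06), and the difference of Poly from Baso was -0.17 (95% confidence interval -0.33 to -0.01, limma adjusted p = 0.139). From Poly to Ortho Icam4 fell by 2.05 (SE 0.07, limma adjusted p = 1.29e-08), a value below those of all but 0.208% of tested genes. An antisense gene, Gm47079, overlaps Icam4 and had a mean of 2.72 FPKM over the 12 libraries, and since the strand of counting is not stated, reads of the pair cannot be told apart. Against Rhag, Icam4 stood at a ratio of 0.369 ± 0.014 in Poly and of 0.103 ± 0.004 in Ortho (SD, n = 3).

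Cd47, the inhibitory ligand of macrophage SIRPα (ENSMUSG00000055447, mm10 chr16:49800533-49915010, plus strand, 10 exons), changed least, with a highest stage mean 1.54 times the lowest. Its libraries were at 114, 144 and 133 FPKM in Pro, 211, 187 and 205 in Baso, 186, 188 and 183 in Poly, then 161, 152 and 165 in Ortho. The Pro libraries were the lowest, the Baso and Poly ranges overlapped, and the Ortho libraries lay between Pro and Poly. Cd47 rose by 0.62 (SE 0.09) on the log2 scale from Pro to Baso (limma, adjusted p = 9.79e-05). Neither later step passed the threshold by limma, at -0.11 from Baso to Poly (95% confidence interval -0.30 to 0.08, adjusted p = 0.43) and -0.22 from Poly to Ortho (-0.41 to -0.03, adjusted p = 0.0859). The last value, -0.22, had an adjusted p of 0.0153 by limma when the replicate number, which pairs the Baso, Poly and Ortho libraries, was a block in their model. Its adjusted p by limma was 0.022 without Pro replicate 1 and 0.0148 with only Poly and Ortho in the model, and with the libraries rescaled to the same sum the fall was -0.41 (limma, adjusted p = 0.00395). The ratio of Cd47 to Rhag was 0.706 ± 0.046 in Pro, 0.697 ± 0.028 in Baso, 0.917 ± 0.026 in Poly, then 0.948 ± 0.072 in Ortho.

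Kel (ENSMUSG00000029866, mm10 chr6:41686330-41704339, minus strand, 19 exons) was at 156, 169 and 149 FPKM in Pro, 328, 309.8 and 311 in Baso, 259, 238 and 246 in Poly, then 206, 199 and 194 in Ortho. No pair of stages overlapped, and Pro was the lowest. Kel rose by 0.998 (SE 0.07) on the log2 scale from Pro to Baso (limma, adjusted p = 1.64e-06), the largest rise among the 8. It fell by 0.35 from Baso to Poly (limma, adjusted p = 0.00968) and by 0.31 from Poly to Ortho (limma, adjusted p = 0.00442), and the second value missed the threshold when hemoglobin genes were left out (-0.17) or medians were centred (-0.16). A same-strand transcript of unknown kind, Gm37527, lies over Kel and had a mean of 9.44 FPKM, so reads may have been split between them.

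Xk, whose protein is bound to Kell, was far less abundant than Kel in every stage and fell from Baso on. Its means were 26.1 ± 0.67 FPKM in Pro, 28.9 ± 2.52 in Baso, 17.1 ± 1.01 in Poly, then 7.40 ± 0.60 in Ortho (SD, n = 3). The ratio of Kel to Xk was 5.90, 6.39 and 5.87 in Pro, 12.3, 10.9 and 9.84 in Baso, 16.3, 13.4 and 14.0 in Poly, then 30.3, 26.8 and 24.3 in Ortho. Each stage lay wholly above the one before it, and the Ortho mean of 27.1 ± 3.02 compared with 6.05 ± 0.29 in Pro.

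Gypc (ENSMUSG00000090523, mm10 chr18:32528322-32560034, minus strand, 3 exons) was at 115, 118 and 94.1 FPKM in Pro, 222, 209 and 211 in Baso, 217, 204 and 210.1 in Poly, then 66.0, 74.1 and 73.4 in Ortho. The Baso and Poly libraries overlapped at the top, and all Ortho libraries lay below all Pro libraries. Gypc rose 1.96-fold from Pro to Baso (limma log2 fold change 0.97, SE 0.09, adjusted p = 5.53e-06). Poly differed from Baso by -0.02 (95% confidence interval -0.22 to 0.17, limma adjusted p = 0.895), and Ortho fell by 1.55 from Poly (limma, adjusted p = 1.56e-07). Epb41, which encodes the skeletal protein that glycophorin C binds, was at 180 ± 53.8 FPKM in Poly and at 499 ± 114 in Ortho. The ratio of Gypc to Epb41 was 1.49, 1.12 and 1.97 in Pro, 0.835, 0.872 and 1.69 in Baso, 0.899, 1.32 and 1.47 in Poly, then 0.118, 0.202 and 0.128 in Ortho. The first 3 stages overlapped widely, and every Ortho library lay below them.

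**Figure D3:**
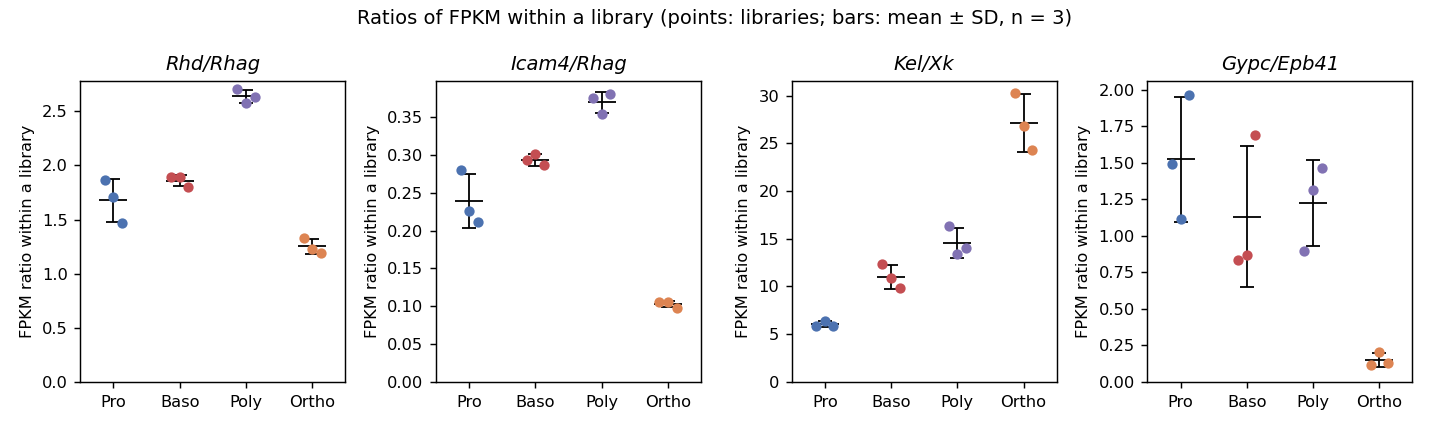
Ratio of FPKM of a pair of genes within each library, by stage, with points for libraries and bars for the mean ± SD (n = 3). Kel/Xk climbs from 6.05 in Pro to 27.1 in Ortho, Rhd/Rhag and Icam4/Rhag peak in Poly at 2.64 and 0.369, and Gypc/Epb41 is lowest in Ortho at 0.149.

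Aqp1 (ENSMUSG00000004655, mm10 chr6:55336432-55348555, plus strand, 4 exons) was the most abundant of the 8 genes in Pro, Baso and Poly, and in Baso its mean exceeded that of 99.7% of tested genes. It was at 620.0, 762 and 691 FPKM in Pro, 906, 916 and 945 in Baso, 638, 675 and 674 in Poly, then 179.8, 211 and 223 in Ortho. Pro and Poly overlapped, Baso lay above both, and Ortho lay far below all other libraries. Aqp1 rose by 0.42 (SE 0.10) on the log2 scale from Pro to Baso (limma, adjusted p = 0.0028) and fell by 0.48 from Baso to Poly (limma, adjusted p = 0.0113). Without Poly replicate 1 the second value was -0.45 (limma, adjusted p = 0.0501). From Poly to Ortho it fell by 1.70 (limma, adjusted p = 1.52e-07), and its Ortho libraries overlapped those of Rhd, with Aqp1 at 204 ± 22.2 and Rhd at 211 ± 8.68 FPKM. Endothelial cells of the marrow also carry Aqp1. Of 8 endothelial markers, Kdr, Tek and Emcn had stage means of at most 0.113 FPKM. Eng was at 25.5 ± 6.08 FPKM in Pro, 6.36 ± 0.68 in Baso and 5.28 ± 0.83 in Ortho, and Egfl7 at 8.03 ± 0.47, 3.19 ± 0.69 and 4.88 ± 0.36. Both were lower in Baso and in Ortho than in Pro. Cdh5 went from 0.78 ± 0.32 in Pro to 1.96 ± 0.31 in Ortho. Of 4 tested markers 2 rose and 2 fell in Ortho against Pro, where 22.7% and 53.2% of all tested genes did. Once hemoglobin genes were removed or medians were centred 1 fell, against 34.8% and 35.5% of all genes. The endothelial markers summed to 37.9 to 48.7 FPKM in Pro, 18.7 to 22.4 in Baso, 23.1 to 24.6 in Poly, then 24.2 to 28.8 in Ortho, with Pecam1, the highest over all libraries, at 6.65 ± 0.68 FPKM in Pro and 13.4 ± 0.96 in Ortho. Eng was the largest part of the Pro sum. Which cells the RNA of these markers came from, and their part in the values of Aqp1, was not tested.

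Ermap (ENSMUSG00000028644, mm10 chr4:119175457-119190011, minus strand, 13 exons) was at 199, 200.03 and 218 FPKM in Pro, 274, 250.2 and 271 in Baso, 204, 196 and 194 in Poly, then 141, 144 and 148 in Ortho. Baso was the highest and Ortho the lowest without overlap, and Pro and Poly overlapped. It rose by 0.36 (SE 0.07) on the log2 scale from Pro to Baso (limma, adjusted p = 0.00059), the smallest rise of the 8. It fell by 0.42 from Baso to Poly (limma, adjusted p = 0.00356) and by 0.45 from Poly to Ortho (limma, adjusted p = 0.000217).

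From the first stage to the last the genes did not share a direction. In Ortho against Pro, 5 of 8 fell (Gypc, Rhd, Aqp1, Icam4 and Ermap), and Kel and Cd47 rose. These shares were near the 53.2% and 22.7% of all tested genes that fell and rose. Called lower were Aqp1, by -1.75 on the log2 scale (limma, adjusted p = 3.17e-08), and Icam4, by -1.29 (limma, adjusted p = 3.91e-08). This share was near the 23.8% of all genes called lower. None of the 8 was called higher by limma, against 6.33% of all genes, and 7 had an unadjusted p under 0.05 in either direction. The members' median was -0.53 and that of all genes -0.42.

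Of these directions, 3 turned with the scaling of the libraries, and 3 more genes lost the threshold. Rhag was at -0.13 with the values as deposited (95% confidence interval -0.29 to 0.03, limma adjusted p = 0.132), at 0.36 once hemoglobin genes were removed, at 0.27 once medians were centred and at -0.50 with the libraries rescaled to the same sum, each of the last 3 past the threshold. Kel, 0.34 as deposited (limma, adjusted p = 0.00073), and Cd47, 0.29 (limma, adjusted p = 0.00878), were at -0.03 and -0.08 with the libraries rescaled to the same sum. Gypc (-0.60), Rhd (-0.55) and Ermap (-0.51) lost the threshold once hemoglobin genes were removed, at -0.11, -0.06 and -0.02. They also lost it once medians were centred, at -0.21, -0.15 and -0.11. Aqp1 and Icam4 fell under all 4 scalings, and Icam4, at -0.81 once hemoglobin genes were removed and -0.89 once medians were centred, was then no longer called.

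**Figure D4:**
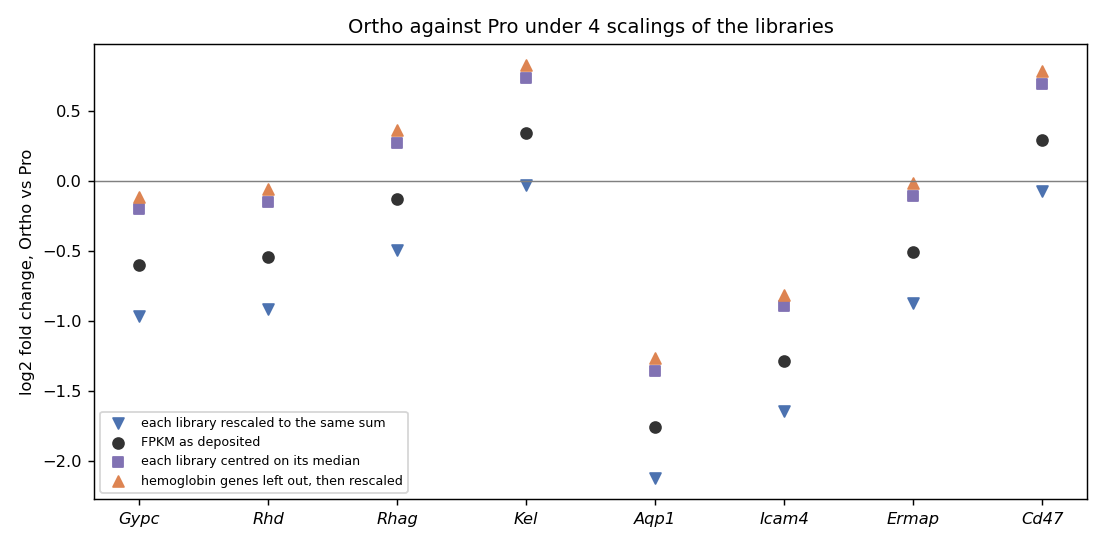
Log2 fold change of Ortho against Pro for the 8 genes under 4 scalings of the libraries, 1 symbol a scaling. The symbols of Aqp1 and Icam4 all lie below 0, those of Rhag, Kel and Cd47 lie on both sides of it, and those of Gypc, Rhd and Ermap reach up to -0.11, -0.06 and -0.02.

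As a group the 8 genes summed to 1831 ± 108 FPKM in Pro, 2827 ± 52.3 in Baso, 2317 ± 19.1 in Poly, then 1176 ± 46.2 in Ortho (SD, n = 3). Their mixture shifted, and shares of this sum do not depend on the scaling of a library. Aqp1 made up 37.7% ± 1.86 of it in Pro, 32.6% ± 0.91 in Baso, 28.6% ± 0.95 in Poly, then 17.4% ± 1.32 in Ortho. Kel went from 8.63% ± 0.35 in Pro to 17.0% ± 1.14 in Ortho, Cd47 from 7.11% ± 0.49 to 13.6% ± 0.59 and Rhag from 10.1% ± 0.49 to 14.3% ± 0.64, and in each of these the Pro and Ortho libraries did not overlap. Icam4 went from 2.40% ± 0.30 to 1.47% ± 0.02.

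The genes with the most similar course were sought among 5924 genes with a mean of at least 10 FPKM, by the root mean square difference of log2(FPKM + 1) over the 12 libraries after centring each gene on its mean. Gypc was nearest to Kif23, a kinesin of cytokinesis, at 0.064, and next to Rhd, at 0.112. Rhd was nearest to Racgap1 (0.083) and to Lbr (0.092), which encode a regulator of cytokinesis and the lamin B receptor. Icam4 was nearest to Kif18a (0.122), a mitotic kinesin, and to Cdca3 (0.130). The nearest genes to Rhag were Zdhhc14 (0.098) and Optn (0.0998), those to Kel were Galnt10 (0.103) and Btnl10 (0.125), and those to Aqp1 were Micall2 (0.118) and the heme synthesis gene Cpox (0.122). Ermap lay nearest to Map3k20 (0.080) and the clathrin heavy chain gene Cltc (0.091), and Cd47 to Serinc3 (0.071) and Sppl2b (0.099). Among the members themselves the pair least alike was Aqp1 and Cd47, at 0.805.

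Other genes of blood group systems were counted for comparison, in a list of 31 that held 23 tested genes. The list also held Slc44a1, which carries no blood group antigen, and Cd44, whose product defines the sorting gates and which is therefore no finding between stages. From Pro to Baso 9 of the 23 rose and 5 fell by limma, where 14.9% and 42.1% of all genes did. Called higher were 3 (Slc4a1, Ackr1 and Art4) and called lower was 1 (Slc29a1), against 1.82% and 8.54% of all genes. From Baso to Poly 2 rose and 7 fell, against 6.58% and 5.77% of all genes, and 13 had an unadjusted p under 0.05. None was called higher and 2 were called lower (Cd59a and Smim1), against 0.0616% and 0.454% of all genes. From Poly to Ortho 2 rose and 10 fell, against 4.43% and 21.7% of all genes. Called lower were 7 (Slc14a1, Xk, Cd55, Abcb6, Slc29a1, Ache and Smim1), against 4.81% of all genes. In Ortho against Pro 7 rose and 13 fell, shares near the 22.7% and 53.2% of all genes. Slc4a1, Art4 and Gcnt2 were then called higher and 7 were called lower, against 6.33% and 23.8% of all genes. The list's median log2 fold changes in these 4 comparisons were 0.19, -0.12, -0.34 and -0.46. In Baso against Pro the split of 9 and 5 was 16 and 2 once hemoglobin genes were removed, 16 and 3 with median centring, and 5 and 5 with the libraries rescaled to the same sum. The shares of all genes that rose and fell were then 27% and 24.4%, 30.5% and 23.5%, and 8.89% and 51.3%. In Ortho against Pro the split of 7 and 13 was 8 and 8, 8 and 9, and 7 and 14 in the same order. The shares of all genes that rose and fell were then 34.3% and 34.8%, 34.5% and 35.5%, and 14.7% and 63.4%. The calls there, 3 higher and 7 lower, were 7 and 4 once hemoglobin genes were removed, against 15.3% and 8.88% of all genes. With median centring they were 7 and 4, against 16% and 9.95%. With the libraries rescaled to the same sum they were 2 and 9, against 2.47% and 37.4%.

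Smim1, Slc29a1, Abcb6 and Art4 ended far from their first level, in the same direction under all 4 scalings. Smim1, the small Vel antigen protein, went from 38.1 ± 6.23 FPKM in Pro to 2.69 ± 0.43 in Ortho (limma log2 fold change -3.40, adjusted p = 5.52e-09). Slc29a1, a nucleoside transporter, went from 136 ± 4.90 to 20.1 FPKM (limma log2 fold change -2.70, adjusted p = 1.16e-09), and the porphyrin transporter gene Abcb6 from 42.9 to 11.4 (limma log2 fold change -1.81, adjusted p = 5.28e-08). Art4, the Dombrock gene, rose from 11.5 ± 0.995 to 45.2 ± 1.65 FPKM (limma log2 fold change 1.89, adjusted p = 7.65e-09). Of the more abundant genes of the list, Bsg, the gene of basigin, was at 346 FPKM in Pro, 449 in Baso, 429 in Poly, then 217 in Ortho. The means of the transporter gene Abcg2 were 50.5, 101, 73.2 and 46.6 FPKM.

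**Figure D5:**
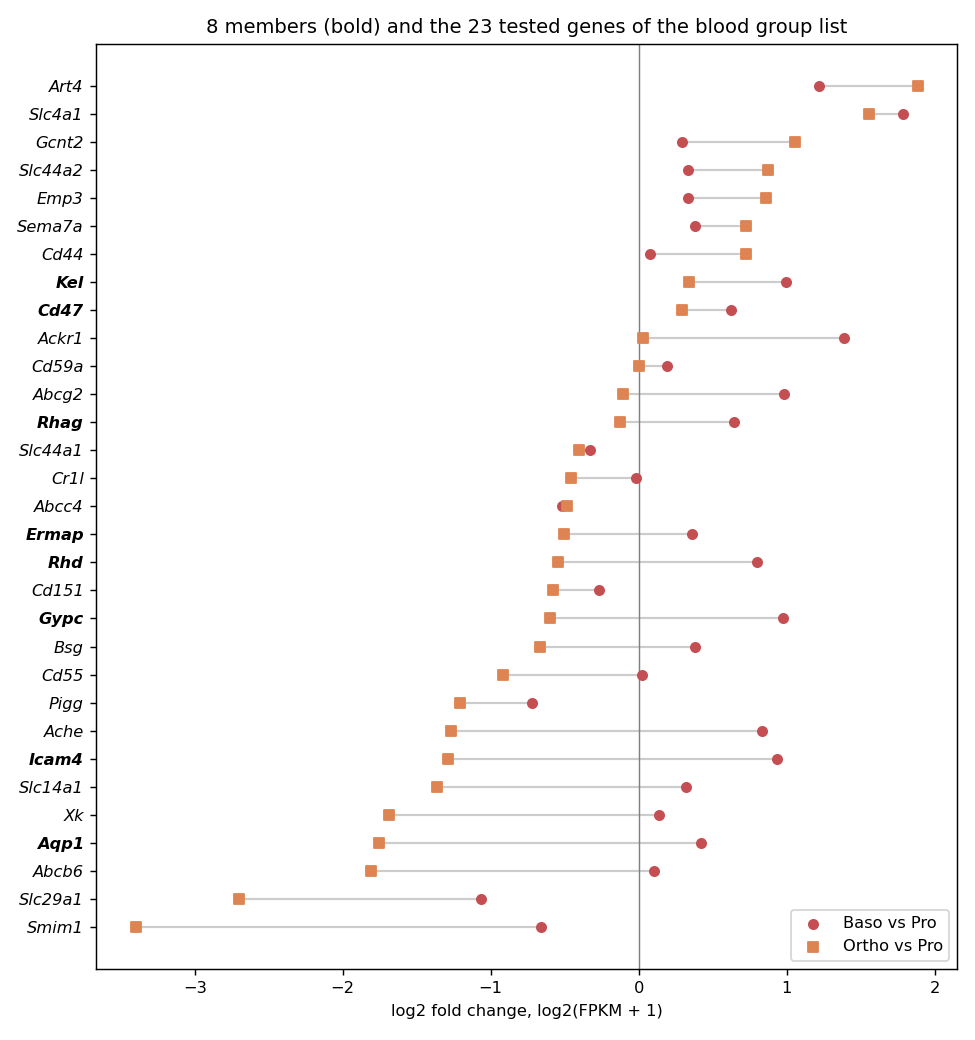
Log2 fold change of Baso against Pro (circles) and of Ortho against Pro (squares) for the 8 genes, in bold, and the 23 tested genes of the blood group list, ordered by the second value. In Baso against Pro all 8 bold genes lie right of 0, and in Ortho against Pro they spread from -1.75 (Aqp1) to 0.34 (Kel), inside the list's range of -3.40 (Smim1) to 1.89 (Art4).

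The 8 genes of binding partners (Slc4a1, Ank1, Epb42, Epb41, Mpp1, Dmtn, Add2 and Xk), 2 of which are also in the blood group list, were all tested. From Pro to Baso 6 rose and none fell by limma, where 14.9% and 42.1% of all genes did. Slc4a1, Epb42, Epb41 and Dmtn were called higher, against 1.82% of all genes. From Baso to Poly 2 fell and none rose, against 5.77% and 6.58% of all genes. None was called, against 0.454% of all genes called lower and 0.0616% called higher, and 3 had an unadjusted p under 0.05. From Poly to Ortho Epb41 was called higher and Xk and Dmtn lower, against 1.05% and 4.81% of all genes. In all 2 rose and 3 fell, against 4.43% and 21.7%. In Ortho against Pro 4 rose and 2 fell, against 22.7% and 53.2% of all genes. Slc4a1, Epb42, Epb41 and Mpp1 were called higher, against 6.33% of all genes. Xk was called lower, against 23.8%, by -1.69 (limma, adjusted p = 2.1e-08). With the libraries rescaled to the same sum 2 were called higher and 2 lower, where 2.47% and 37.4% of all genes were. With the values as deposited, the median log2 fold changes of the partners in the 4 comparisons were 1.09, -0.20, -0.32 and 0.53. The members' own were 0.72, -0.26, -0.90 and -0.53. Slc4a1, the anion exchanger band 3, was at 582 ± 143 FPKM in Pro, 1973 ± 185 in Baso, 1902 ± 59.5 in Poly, then 1672 ± 28.3 in Ortho. The ratio of Rhag to Slc4a1 was 0.333 ± 0.10 in Pro, 0.147 ± 0.012 in Baso, 0.107 ± 0.005 in Poly, then 0.101 ± 0.007 in Ortho. Epb42, the gene of protein 4.2, was at 88.8, 221, 233 and 216 FPKM in the same order, and Dmtn, the gene of dematin, at 73.0, 214, 226 and 72.7.

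The paralogs of the members differed widely in level. Of the Rh glycoproteins Rhcg and Rhbg, the higher, Rhcg, had a mean of 0.22 FPKM over the 12 libraries, and neither passed the filter for testing. The aquaporin next in level to Aqp1 was Aqp9, at 14.4, 19.8, 17.9 and 44.1 FPKM in Pro, Baso, Poly and Ortho, and it rose by 1.55 in Ortho against Pro (limma, adjusted p = 3.71e-08) while Aqp1 fell. Icam2, the highest of 3 other ICAM genes, was at 8.82, 9.78, 11.7 and 12.8 FPKM. Ece1, of the peptidase family of Kell, had a mean of 3.61 FPKM. Mmel1 of the same family, named after its values were seen, went from 0.401 ± 0.079 FPKM in Pro to 4.04 ± 0.33 in Baso (limma log2 fold change 1.85, adjusted p = 1.64e-06). Btnl9, the butyrophilin-like gene with the highest mean of its list of 3, was at 1.77 FPKM. That list did not hold Btnl10, named above as near Kel among genes with a mean of at least 10 FPKM.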

How the data were processed

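RNA of 12 libraries, 3 for each of 4 sorted stages, was analysed from 1 table of FPKM that the authors deposited. Per the labels and methods, reads were trimmed with cutadapt and Trimmomatic, aligned to mm10 with HISAT2, handled with SAMtools and counted with featureCounts. Versions, the annotation, the strand of counting and the tool that made FPKM are not given in the sources used here. The methods name KAPA Hyper Prep libraries and the labels NEBNext Ultra. The submitters' names of tools and build were copied as labels. Of 29839 rows, 1 repeated identifier was dropped. In values under 0.03 FPKM, the ratios of library pairs showed no steps of whole fragments (at most 8.72% in 1 bin of 0.1 on the log2 scale), so counts and depth could not be recovered. Precision rests on the spread of 3 libraries, whose correlations within a stage were 0.9729 to 0.9835, with 0 identical pairs.

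Genes with at least 1 FPKM in at least 3 libraries (12994) entered limma 3.58.1 (R 4.3.3, with Python 3.11.15 for the rest) on log2(FPKM + 1) with a variance trend and all libraries in 1 model, a check on simulated data included. P-values were two-sided and Benjamini-Hochberg adjusted over all tested genes. An exact permutation test of 3 against 3 libraries cannot give a p under 0.1 and was not used. On this scale the change of low genes is understated. The settings tried in their place were a pseudocount of 0.1 or 5, no filter, a mean of at least 5 FPKM, rescaling to the same sum, leaving out hemoglobin genes, median centring, no trend, only the stages compared, a replicate block, the adjusted p alone, and leaving out each library.

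Named are the 8 members, the 4 highest and the 4 most changed called genes (Ortho against Pro) of the blood group and partner lists, the highest gene of each family and marker list, the 2 genes most like each member and genes overlapping a member. Called genes of the lists were named beyond this rule after their values were seen, as were Mpp1, the other endothelial markers and the genes behind the ratios. The members and lists were chosen with earlier results of these data known. Of the list genes, Abo, Aqp2, Aqp5, Aqp6, Mme and Btn2a2 were not analysed here. Another gene was taken out of the lists and is not reported here. Positions are from GENCODE M21 on mm10. Libraries of the same number deviated together in Baso, Poly and Ortho (r of 0.156 to 0.319) and more weakly with Pro (0.00524 to 0.0968, under the limit of 0.1 set for a pairing). So the pairing of these 3 stages rests on the values, and its source is not stated.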

Additional observations from a re-analysis of the deposited data

How the results depend on the processing

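The counts of called members in Baso against Pro (0) were 1 with a pseudocount of 0.1, 4 with hemoglobin genes left out or with median centring, 8 by the adjusted p alone and 0 to 2 when 1 library was left out (2 without Pro replicate 2, and 1 without Pro replicate 1, Baso replicate 2 or Baso replicate 3). The genes that crossed the fold threshold when 1 library was left out were Kel and Gypc, at 0.998 and 0.97 with all libraries. The 4 called with hemoglobin genes left out were Gypc, Rhd, Kel and Icam4, at 1.29, 1.11, 1.31 and 1.24. With median centring the same 4 were at 1.27, 1.09, 1.30 and 1.23. By the adjusted p alone the later members' counts were 4 in Poly against Baso, 7 in Ortho against Poly and 7 in Ortho against Pro. The 2 called members in Ortho against Pro were 1 with hemoglobin genes left out or with median centring, where Icam4 lost its call, and by the adjusted p alone 3 were higher and 2 lower in both. Called genes of the blood group list were 14, 9, 12 and 20 by the adjusted p alone, against 4, 2, 7 and 10. In Poly against Baso they were 0 with a pseudocount of 5, 1 with hemoglobin genes left out and 0 to 2 without 1 library (0 without Baso replicate 3 or Poly replicate 1, and 1 without Poly replicate 2). Partners by the adjusted p alone were 2 in Poly against Baso and 5 in Ortho against Poly. Signs turned for Poly against Baso in Gypc (0.00922 with hemoglobin genes left out, and -0.0468 to 0.00242 without 1 library, above 0 without Baso replicate 1) and Rhd (0.0295 with hemoglobin genes left out, and -0.0161 to 0.0171 without 1 library, above 0 without Baso replicate 1 or Poly replicate 2). In Ortho against Pro they turned for Rhag (0.36 and 0.27), Kel (-0.0306) and Cd47 (-0.0754), as given with the scalings. Rhag there passed the threshold without Pro replicate 1 (-0.18) or Ortho replicate 3 (-0.19). Of all alternatives to the members' fold changes, 688 kept direction and side of the threshold, 16 lost the threshold, 7 gained it and 9 reversed. With the replicate block in Baso, Poly and Ortho, Cd47 in Ortho against Poly was -0.22 and gained the threshold, and the pairing changed no other member's call. Of the 16 most similar genes, 10 were shared with a pseudocount of 5, 11 with 0.1 and 15 or 16 under the other scalings. Values are relative within a library, and depth, absolute RNA per cell and protein were not measured.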

Other observations

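Markers of other marrow cells were measured beside the erythroid genes, in sorts from which CD45-, CD11b- and GR1-positive cells had been gated out. All 10 B cell markers were higher in Ortho than in Pro by limma (9 with the libraries rescaled to the same sum). Of all tested genes 22.7% were higher (14.7% with the libraries rescaled to the same sum). The B cell markers summed to 165 to 262 FPKM in Pro, 320 to 354 in Baso, 488 to 509 in Poly, then 507 to 559 in Ortho. Ighm, the immunoglobulin heavy chain gene and the most abundant of them, was at 109 ± 26.4 FPKM in Pro and 287 ± 18.6 in Ortho. Macrophage markers summed to 48.9 to 54.5 FPKM in Pro and 93.6 to 129 in Ortho, but 6 of the 11 were under 1 FPKM in every stage, and Sirpa, the receptor for Cd47, was the highest, at 19.9 ± 2.53 and 38.6 ± 13.2 FPKM. Of the T and NK cell markers, 4 of 10 were tested and all 4 were higher in Ortho than in Pro, against 22.7% of all genes. With the libraries rescaled to the same sum 2 were higher, against 14.7%. Nkg7, the most abundant, was at 23.6 ± 3.56 and 35.1 ± 3.13 FPKM. Megakaryocyte and platelet markers went the other way, with 7 of 9 lower in Ortho than in Pro (6 to 8 under the other scalings). Of all genes 53.2% were lower (34.8% to 63.4% under the other scalings). The sums of these markers were 77.0 to 139 FPKM in Pro and 41.4 to 50.2 in Ortho, although Itga2b, the most abundant, was at 18.9 ± 2.58 and 25.0 ± 1.12 FPKM. The part of these cells in the members' values was not tested.

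Cd44, whose protein was used to sort the stages, was at 32.9 ± 6.35 FPKM in Pro, 34.4 ± 2.54 in Baso, 46.6 ± 4.17 in Poly, then 54.9 ± 8.74 in Ortho. It is 1 of the 7 genes of the blood group list that rose in Ortho against Pro, and since CD44 defines the stages it is no finding between them.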
